A study of Mus musculus with 8 samples.

Results

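Interferon-induced antiviral genes were followed in cultured mouse myotubes exposed to 3 related cytokines. The set is a list of 40 genes, taken from general knowledge of the interferon response and matched by Ensembl identifier, of 53647 gene identifiers counted. The list was chosen with earlier results of these data known. It covers antiviral effectors, sensors of viral RNA, enzymes of ISG15 conjugation and interferon regulatory factors. All 40 were found, and 37 had enough counts to be tested. The exceptions were Oas1a with 0 to 3 counts per library, Oas2 with 0 to 2 and Mx1 with 2 to 11.

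Interferons bind receptors on the cell surface and activate the kinases JAK1 and TYK2, which phosphorylate STAT proteins. The complex ISGF3, which contains STAT2 and IRF9, then binds the interferon-stimulated response element (ISRE) in the promoters of its target genes. Interferon gamma acts mainly through another element, the gamma-activated site (GAS). Oncostatin M (OSM), leukaemia inhibitory factor (LIF) and interleukin 6 (IL6) signal through the shared receptor subunit gp130 and are known above all for activating STAT3.

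The cells were wild-type (WT) primary myotubes, multinucleated fibres that form when muscle precursor cells fuse in culture. The precursors, isolated from pup limbs at an age of 2 to 3 days, were differentiated under 5% horse serum. Myotubes received OSM, LIF or IL6 at 250 ng/ml for 48 h or served as controls, which carry no named vehicle in the labels, and RNA was taken 72 h after differentiation. Each of the 4 groups had 2 libraries, and the series concerns OSM in cancer-associated muscle wasting. The labels do not say whether replicates came from separate animals or cultures, so p-values measure only the spread between these samples, which may be technical. In such bulk RNA, fewer cells of a type and less RNA per cell cannot be told apart.

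Promoters were read to see what members that rose together share in sequence. RefSeq windows of 300 bases (GRCm38.p6, 250 bases before to 50 after a gene's start) were given for 32 of the 40 members. The ISRE core, which is TTTC, any 2 bases and TTTC again, searched on both strands, was found in 14 of these 32 (43.8%), against 3.99% of 27025 genes with a window and 3.44% of all 32851 windows. The GAS letters, TTC, any 3 bases and GAA, which read the same on both strands, were in 10 of 32 (31.2%), against 9.55% of genes and 8.30% of windows, and 5 members held both. The 150 bases before the start are shown 5′ to 3′ on the gene's strand for 6 members chosen after their values were seen. Ifit1 (chr19:34640739-34640888, plus strand), Rsad2 (chr12:26456453-26456602, minus strand), Gbp7 (chr3:142530186-142530335, plus strand) and Gbp3 (chr3:142559894-142560043, plus strand) rose with LIF and OSM. Isg15 (chr4:156200819-156200968, minus strand) was called with OSM from control libraries far apart, and Bst2 (chr8:71537473-71537622, minus strand) fell with OSM. Capitals mark every match to the ISRE core, with overlapping matches merged; in Isg15 and Bst2 they are on the other strand and so read as GAAA, any 2 bases and GAAA.
Ifit1: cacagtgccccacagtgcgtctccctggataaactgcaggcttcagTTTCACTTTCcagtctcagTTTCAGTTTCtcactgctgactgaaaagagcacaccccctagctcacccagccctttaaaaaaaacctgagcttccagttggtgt
Rsad2: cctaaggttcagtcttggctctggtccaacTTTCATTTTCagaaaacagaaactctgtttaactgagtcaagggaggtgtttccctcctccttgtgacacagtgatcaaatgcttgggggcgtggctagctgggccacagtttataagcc
Gbp7: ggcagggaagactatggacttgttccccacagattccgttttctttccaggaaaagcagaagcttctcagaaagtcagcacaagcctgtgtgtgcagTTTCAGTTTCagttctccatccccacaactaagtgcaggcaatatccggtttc
Gbp3: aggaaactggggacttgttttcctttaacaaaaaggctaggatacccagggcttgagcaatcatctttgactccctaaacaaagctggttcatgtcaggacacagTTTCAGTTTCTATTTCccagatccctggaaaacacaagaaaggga
Isg15: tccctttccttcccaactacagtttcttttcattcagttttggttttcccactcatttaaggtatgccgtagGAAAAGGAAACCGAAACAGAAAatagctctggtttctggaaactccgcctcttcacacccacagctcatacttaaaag
Bst2: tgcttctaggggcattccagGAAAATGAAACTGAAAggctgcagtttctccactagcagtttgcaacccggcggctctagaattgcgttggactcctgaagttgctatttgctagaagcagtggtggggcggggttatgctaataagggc
In Ifit1 the matches began 104 and 85 bases before the start, in Rsad2 120 bases, in Gbp7 53 bases and in Gbp3 45 and 39 bases before it. The 4 risers were shown because they hold the core. Among members higher with LIF or OSM, 9 hold it in the window and 5 with a window do not.

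Library totals ran from 29482077 to 30025471 gene counts, with 21358 to 21831 genes detected. The 40 members together made up 0.0503% and 0.0448% of the counts in control replicates 1 and 2, 0.0446% and 0.0445% with IL6, 0.0688% and 0.0663% with LIF, and 0.0638% and 0.0710% with OSM. Of 10 myotube markers, Myh8, Mylpf, Tnni2 and Myog were lower and Des higher with OSM, and Myh8 and Myog lower and Des higher with LIF. Both Myh8 calls were lost without either control library, and the Tnni2 call without control 1 (log2 -0.22 there). The 10 markers summed to 26460 and 25330 CPM (counts relative to library size, scaled by edgeR's TMM factors) in controls. The sum was 22180 and 24850 with IL6, 24610 and 23050 with LIF and 22330 and 22140 with OSM. Of 6 tested fibroblast markers, Col3a1 and Pdgfra were higher and Pdgfrb lower with OSM, and Col3a1 higher with LIF. The Pdgfrb call was lost without either control library. Without control 1 the calls of Pdgfra with OSM (log2 0.42 there) and Col3a1 with LIF (0.27) were lost. The fibroblast markers, mostly Col3a1, summed to 1685 and 1749 CPM in controls and 2074 and 2185 with OSM. Col1a1, which did not pass, had 309 and 169 CPM in controls and 72.1 and 84.7 with OSM. The part of these shifts in the results below was not tested. The lymphoid and plasmacytoid dendritic markers summed to 1 to 4 counts per library, with Ms4a1, Ncr1, Siglech and Nkg7 among those at 0 throughout.

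The control libraries stood apart from each other in these genes. Control 1 was higher than control 2 for 30 of the 37 tested members, against 50.01% of all genes, with a median log2 ratio of 0.27 for members and 0.00 for all genes. In 10 members control 1 was at least 1.5-fold above control 2, and in 0 the reverse, while 3.86% and 3.68% of all genes passed those limits. Ifi44, a cytoplasmic interferon-induced protein, had 195 counts in control 1 and 52 in control 2, a 3.68-fold difference in scaled level. Usp18, the protease that removes ISG15, had 36 and 12 counts, and Isg15 itself, a ubiquitin-like modifier, had 301 and 142. Irf9, the DNA-binding part of ISGF3, had 417 and 242 counts. The other members past 1.5-fold were Ifit3b, Mx2, Oasl2, Irf7, Gbp3 and Parp14. By contrast Ifit1 (268 and 291 counts), Gbp7 (211 and 210) and Rsad2 (239 and 279) were close to equal in both controls. In the other groups replicate 1 was the higher for 14 of the 37 members with IL6, 27 with LIF and 7 with OSM. Over all genes these shares were 50.11%, 51.36% and 49.52%. The members' median log2 ratios were -0.06, 0.114 and -0.145, so members leaned to 1 side with LIF and OSM too. At the 1.5-fold limit, 0 members were higher in replicate 1 and 3 in replicate 2 of IL6 (6.22% and 2.95% of all genes). The counts were 2 and 0 for LIF (2.57% and 3.06%) and 0 and 2 for OSM (2.92% and 2.74%). Members whose result turns on the control library are given against each of them.

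**Figure D1:**
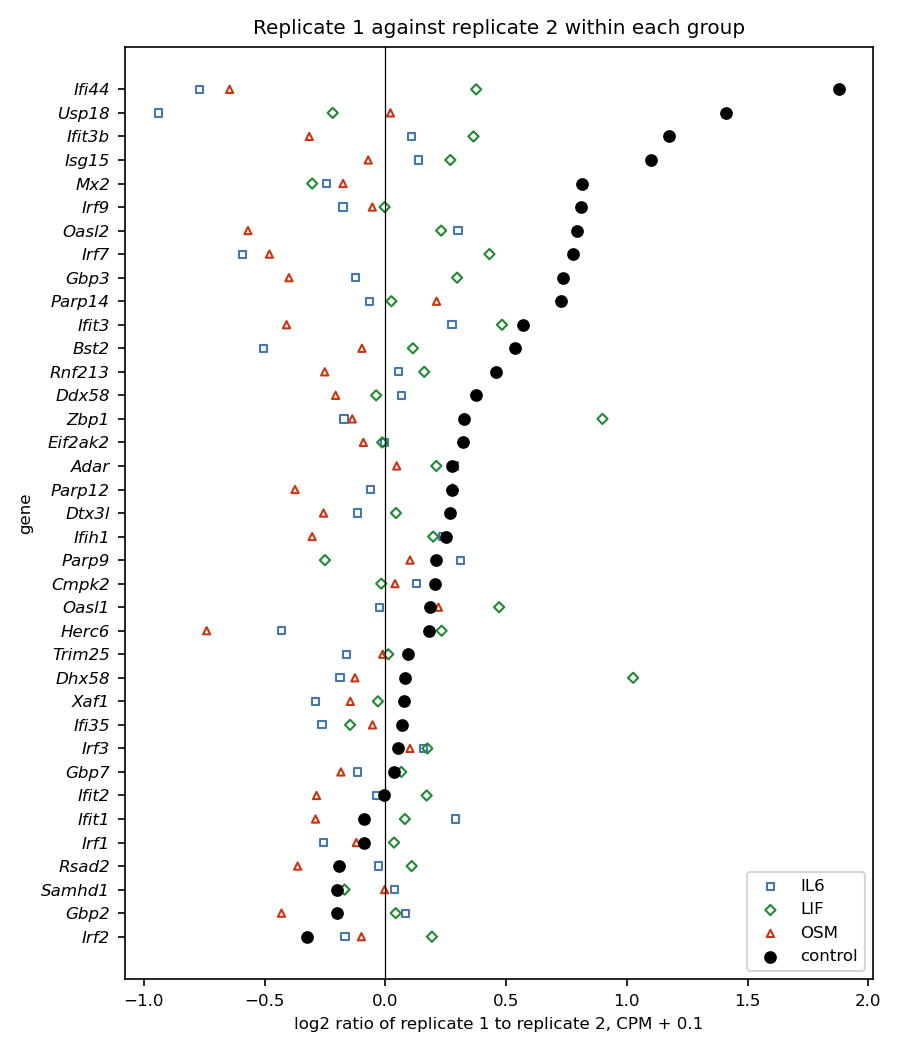
Log2 ratio of replicate 1 to replicate 2 (CPM + 0.1) on the horizontal axis for each of the 37 tested members, ordered by the ratio in the controls (filled circles), with the IL6, LIF and OSM groups as open symbols. Control 1 was above control 2 for 30 members, and Ifi44 was the farthest at 1.88.

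LIF and OSM each raised antiviral genes, with Rsad2 and Ifit1 foremost, and with IL6 none of the 37 passed. A gene was called at a Benjamini-Hochberg adjusted p under 0.05 over 15603 genes in edgeR's quasi-likelihood test. With LIF, 9 of 37 members were higher (all genes: 4.2% higher) and 0 lower (3.46% lower), and at an unadjusted p under 0.05 the count was 17 in either direction, beside 20.5% of all genes. With OSM, 16 were higher (10.8% of all genes) and 3 lower (10.6%). The members called made up 24.3% of those tested with LIF and 51.4% with OSM, where 7.66% and 21.4% of all genes were called. Since the list was chosen with earlier results of these data known, these shares describe it and do not test it. The median log2 change of members was 0.20 with LIF and 0.21 with OSM, beside -0.01 and 0.00 over all genes. Both comparisons use the same control libraries, so their values are given side by side. Leaving out control 2 gave 8 higher and 3 lower with LIF (6.02% of all genes called) and 12 higher and 5 lower with OSM (17.5%). Leaving out control 1 gave 11 higher and 0 lower with LIF (5.5%) and 15 higher and 2 lower with OSM (14.5%).

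**Figure D2:**
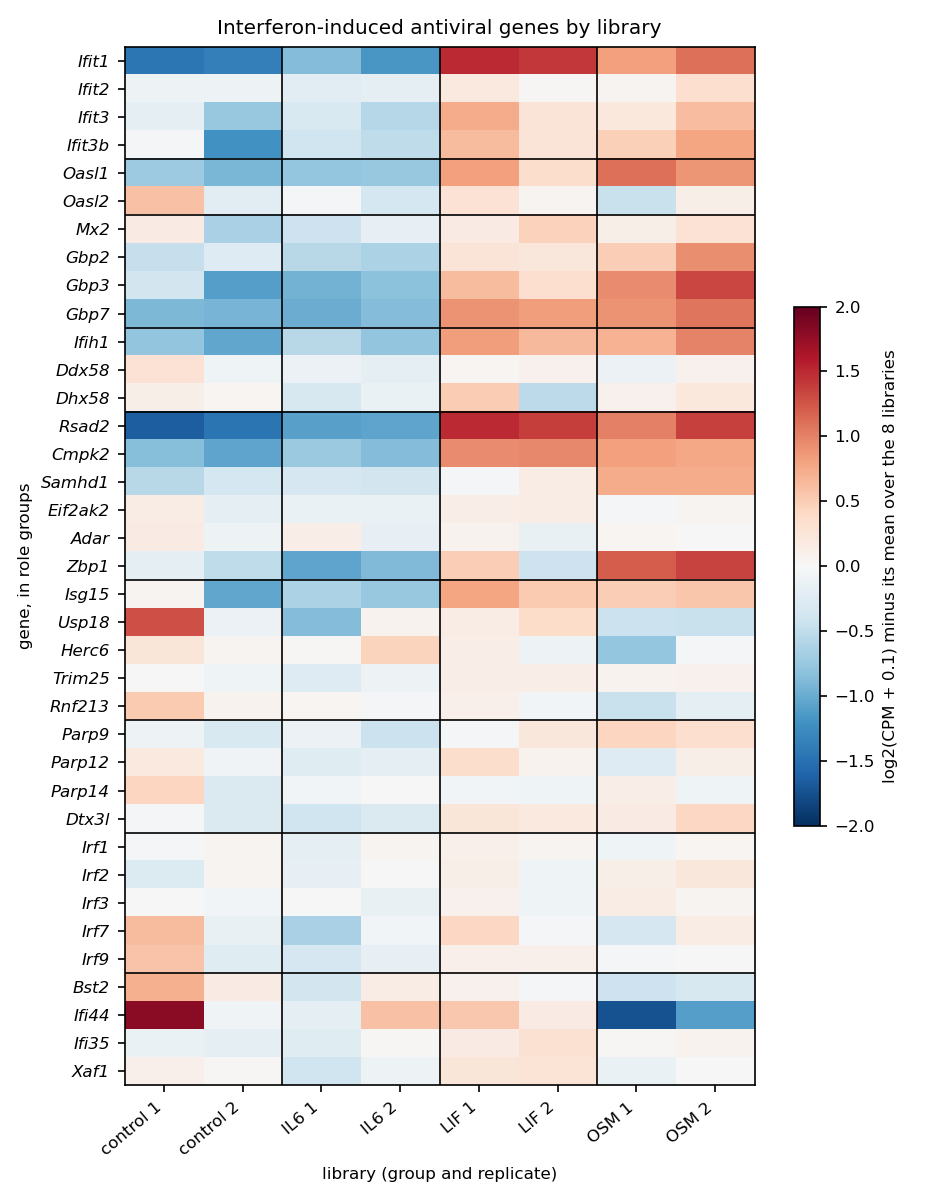
Colour shows log2(CPM + 0.1) of each tested member in each of the 8 libraries minus that gene's mean over the libraries, with role groups separated by lines. Rsad2, Ifit1, Gbp7, Ifih1, Oasl1 and Cmpk2 are above their mean in all 4 LIF and OSM libraries, and Ifi44 and Usp18 are farthest above theirs in control 1.

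The IFIT family, proteins that bind foreign RNA and block its translation, rose in 4 of 4 members with OSM and in 2 of 4 with LIF. Ifit1 stood at 9.20 and 9.77 CPM in controls, 13.8 and 11.3 with IL6, 71.3 and 67.4 with LIF, and 44.5 and 54.4 with OSM. Every LIF and OSM library was above every control and IL6 library, and LIF was above OSM without overlap. The log2 change was 2.87 ± 0.12 (SE) with LIF (edgeR adjusted p = 3.15e-08) and 2.38 ± 0.12 with OSM (2.23e-08). Ifit3 was far lower, with 2.54 and 1.68 CPM in controls, 4.91 and 3.48 with LIF and 3.39 and 4.53 with OSM. Its log2 change was 0.99 ± 0.25 with LIF (edgeR adjusted p = 0.0304) and 0.91 ± 0.26 with OSM (0.0222). Without control 2 these adjusted p-values were 0.174 and 0.142, and the LIF call was also lost without either LIF library and the OSM call without OSM 2. Ifit3b, a near copy of Ifit3 (45.003% of its 50-base stretches also occur elsewhere, Ifit3 included), passed with OSM only (log2 1.23 ± 0.35, edgeR adjusted p = 0.0227). Against control 1 alone its OSM value was 0.72 (adjusted p = 0.154) and against control 2 alone 2.03 (0.0027), and the call was lost without either OSM library. How reads were divided between Ifit3 and Ifit3b was not tested. Ifit2 differed least, at 25.01 and 25.1 CPM in controls against 27.9 and 34.0 with OSM. Its OSM call (log2 0.30 ± 0.10, edgeR adjusted p = 0.0454) was lost with DESeq2 (0.0645) and without either control library, either LIF library or OSM 2, and without OSM 2 the log2 value was 0.16.

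Among the nucleic acid and nucleotide effectors, 4 of 6 rose with OSM and 3 of 6 with LIF. Rsad2 encodes viperin, which makes a nucleotide analogue that ends viral RNA chains. It stood at 8.201 and 9.37 CPM in controls, 12.1 and 12.4 with IL6, 72.8 and 67.6 with LIF and 52.3 and 67.2 with OSM. Its log2 change was 3.00 ± 0.12 with LIF (edgeR adjusted p = 3.15e-08), the largest of the 37 members, and 2.76 ± 0.12 with OSM (1.43e-08). Cmpk2, a mitochondrial nucleotide kinase gene next to Rsad2 on chromosome 12, was low in controls at 1.10 and 0.94 CPM. It reached 4.07 and 4.12 CPM with LIF and 3.69 and 3.59 with OSM, log2 changes of 2.00 ± 0.21 and 1.83 ± 0.22 (edgeR adjusted p = 1.01e-04 and 4.11e-05). Samhd1, which hydrolyses the deoxynucleotides that viruses need, was the only member whose difference between OSM and LIF passed under every alternative. Its levels were 46.4 and 53.2 CPM in controls, 53.7 and 52.3 with IL6, 66.6 and 74.9 with LIF and 113.4 and 113.6 with OSM. The log2 change was 0.51 ± 0.08 with LIF (edgeR adjusted p = 0.00171), 1.19 ± 0.08 with OSM (2.07e-07) and 0.68 ± 0.08 for OSM over LIF (8.9e-05). Zbp1, a sensor of Z-form nucleic acid, had only 6 to 44 counts per library. It rose with OSM, from 0.45 and 0.34 CPM in controls to 1.33 and 1.48, a log2 change of 1.84 ± 0.39 (edgeR adjusted p = 0.00461). Eif2ak2, the kinase PKR, and Adar, an RNA editing enzyme, passed in no comparison, with log2 changes between -0.07 and 0.15 across LIF and OSM.

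**Figure D3:**
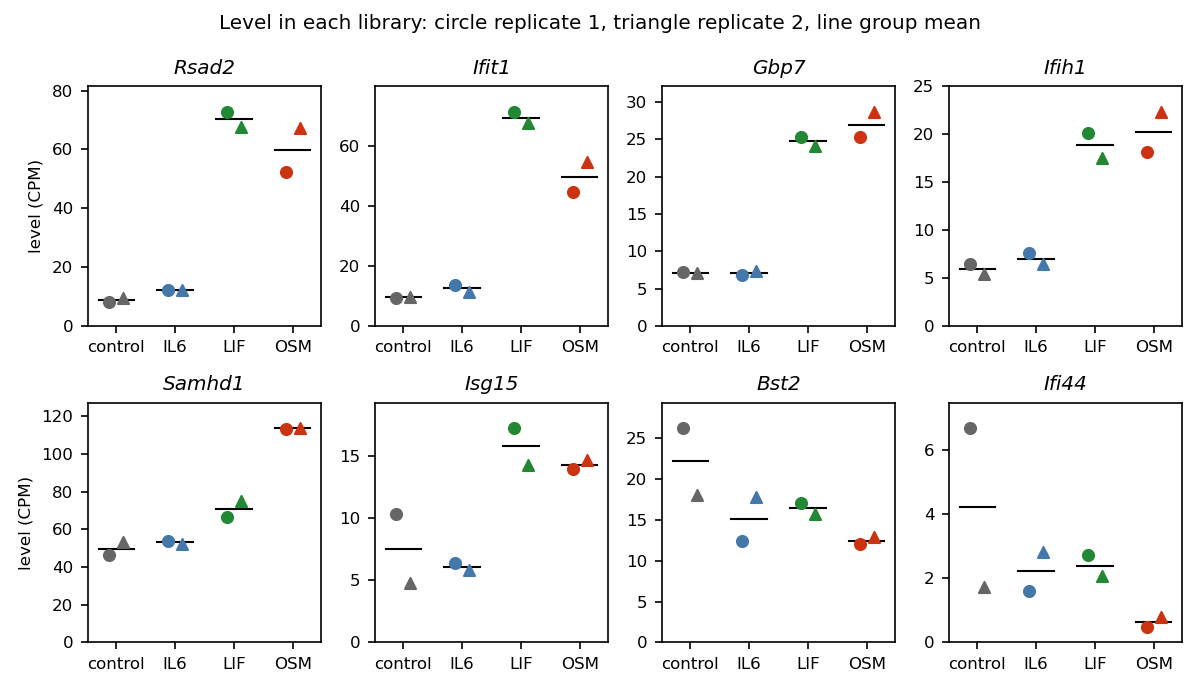
Level in CPM (linear axis from 0) of 8 members in each library, with circles for replicate 1, triangles for replicate 2 and a line at the group mean. Rsad2, Ifit1, Gbp7 and Ifih1 separate LIF and OSM from control and IL6, Samhd1 is highest with OSM at 113.4 and 113.6 CPM, and the Isg15, Bst2 and Ifi44 controls lie far apart.

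The guanylate-binding proteins, GTPases that assemble on membranes around microbes, rose with OSM in Gbp2, Gbp3 and Gbp7, the 3 on the list. Outside it, Gbp4 was lower with OSM (log2 -2.09 ± 0.64, edgeR adjusted p = 0.033), a call lost without either control library, and Gbp5 (0.11) and Gbp9 (-0.09) did not pass. Gbp7 had 7.24 and 7.05 CPM in controls, 6.78 and 7.35 with IL6, 25.3 and 24.2 with LIF and 25.3 and 28.7 with OSM. The log2 change was 1.79 ± 0.11 with LIF (edgeR adjusted p = 7.26e-07) and 1.92 ± 0.11 with OSM (4.35e-08), and Gbp7 was nearly equal in the control libraries. Gbp3 had 2.02 and 1.18 CPM in controls, 4.14 and 3.35 with LIF and 5.17 and 6.84 with OSM. Its rise was 1.23 ± 0.26 with LIF (edgeR adjusted p = 0.0104) and 1.91 ± 0.25 with OSM (9.91e-05), and the LIF call was lost without control 2 (0.0759) or LIF 1 (0.118). Gbp2 passed with OSM (log2 1.11 ± 0.20, edgeR adjusted p = 0.00121) and not with LIF (0.62 ± 0.20, 0.0908). Mx2, listed as a polymorphic pseudogene in the annotation used for names, did not pass, with log2 changes of 0.53 with LIF and 0.41 with OSM. These were 0.17 and 0.05 against control 1 alone and 1.03 and 0.91 against control 2 alone. Its relative Mx1 was not tested.

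Of the RNA sensors only Ifih1 rose. Ifih1 (MDA5), which detects long double-stranded RNA, had 6.45 and 5.41 CPM in controls, 7.61 and 6.44 with IL6, 20.1 and 17.6 with LIF and 18.1 and 22.4 with OSM. The log2 changes were 1.67 ± 0.14 and 1.77 ± 0.14 (edgeR adjusted p = 1.93e-05 and 1.38e-06). Ddx58 (RIG-I), the sensor of RNA ends, gave -0.06 and -0.14, and Dhx58 (LGP2), a regulator of both, gave 0.00 and 0.08, and neither passed. In the oligoadenylate synthetase family, Oasl1 rose from 0.89 and 0.77 CPM in controls to 2.83 and 2.01 with LIF and 3.46 and 2.95 with OSM. These are log2 changes of 1.53 ± 0.27 and 1.94 ± 0.27 (edgeR adjusted p = 0.00396 and 1.58e-04), and the LIF call was lost without LIF 1 (0.0626). Its relative Oasl2 did not pass, with log2 values of -0.06 and -0.38 that were 0.39 and 0.08 against control 2 alone.

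**Figure D4:**
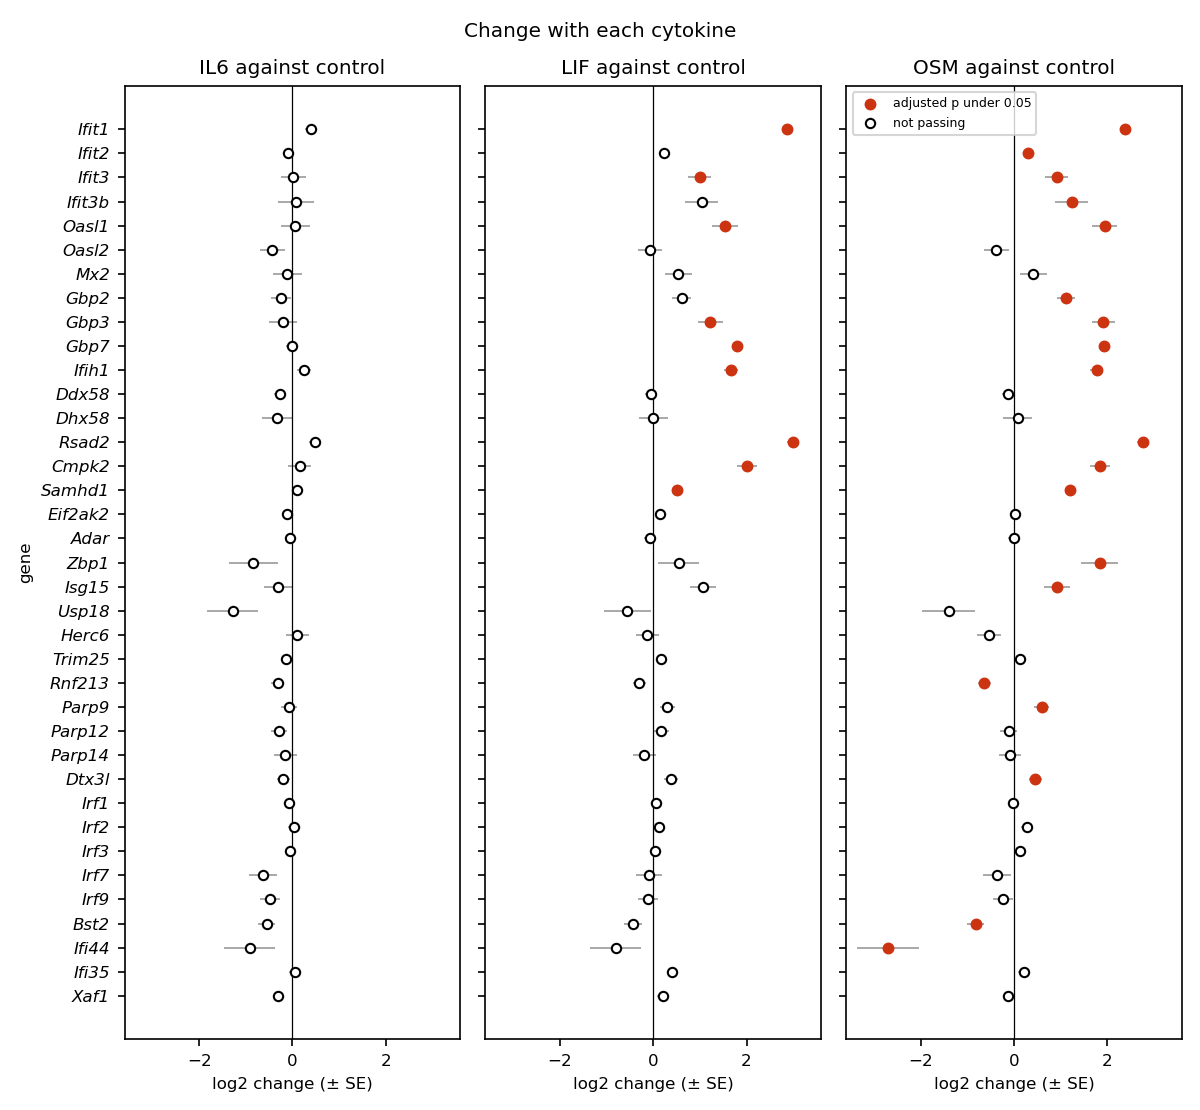
Fitted log2 change (horizontal axis, bars ± SE) of the 37 tested members with IL6, LIF and OSM against control, in role order. Filled points have an edgeR adjusted p under 0.05, and there are 0 with IL6, 9 with LIF and 19 with OSM.

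Genes of ISG15 conjugation and ubiquitin transfer moved in different directions or not at all. Isg15 had 10.3 and 4.77 CPM in controls, 6.38 and 5.80 with IL6, 17.2 and 14.3 with LIF and 14.0 and 14.7 with OSM. All 4 LIF and OSM libraries were above both controls, which themselves differed 2.14-fold. Its log2 change was 1.07 ± 0.28 with LIF (edgeR adjusted p = 0.0536) and 0.93 ± 0.28 with OSM (0.0455). Against control 1 alone these were 0.62 (0.0256) and 0.48 (0.04), and against control 2 alone 1.73 (5.07e-05) and 1.59 (1.25e-05). The OSM call was lost with DESeq2, in a fit of the 2 groups and without any 1 of the 6 libraries that are not controls. Rnf213, a very large ubiquitin ligase, had 52.6 and 38.3 CPM in controls, 39.1 and 34.9 with LIF and 26.6 and 31.6 with OSM. It fell by 0.64 ± 0.14 on the log2 scale with OSM (edgeR adjusted p = 0.00741), or by 0.40 against control 2 alone (0.0258), and the call was lost without OSM 1 (0.0793). With LIF it gave -0.50 against control 1 alone (0.0118) and -0.05 against control 2 alone (0.875). Usp18 gave -0.56 with LIF and -1.41 ± 0.56 with OSM (edgeR adjusted p = 0.0974), on 6 to 36 counts per library. Against control 1 alone its values were -1.15 (0.209) and -1.995 (0.0155), and against control 2 alone 0.46 (0.772) and -0.40 (0.75). Trim25, a ubiquitin ligase of the RIG-I pathway, and Herc6, the mouse ISG15 ligase, did not pass against control.

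The PARP group, ADP-ribosylating enzymes, gave 2 risers of 4 with OSM. Parp9 had 5.52 and 4.77 CPM in controls and 8.01 and 7.45 with OSM, and its partner Dtx3l had 7.38 and 6.11 CPM and then 8.42 and 10.1. The OSM log2 changes were 0.59 ± 0.16 and 0.46 ± 0.14 (edgeR adjusted p = 0.0179 and 0.0351). Both calls were lost without control 2 (0.0978 and 0.194) or OSM 2, that of Parp9 also without OSM 1, and that of Dtx3l also with DESeq2 and without either LIF library. Parp12 and Parp14 did not pass, and Parp14 with OSM was -0.41 against control 1 alone and 0.34 against control 2 alone.

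The 5 interferon regulatory factors were called in none of the 6 comparisons. Irf1 (18.4 to 22.5 CPM over all libraries), Irf2 (15.0 to 21.1) and Irf3 (28.9 to 35.9) did not pass with all libraries, though Irf2 was higher with OSM against control 1 alone (log2 0.45, edgeR adjusted p = 0.0251) and not against control 2 alone (0.12, 0.59). Irf7, which amplifies interferon production, had 5.76 and 3.32 CPM in controls and 2.31 to 4.91 elsewhere, so that the cytokine libraries overlapped the controls. Irf9 had 14.3 and 8.13 CPM in controls, 7.58 and 8.57 with IL6, 10.4 and 10.4 with LIF and 9.30 and 9.66 with OSM. Its LIF value was -0.46 against control 1 alone and 0.35 against control 2 alone, and its OSM value was -0.58 (edgeR adjusted p = 0.00871) and 0.22.

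Bst2 and Ifi44 were lower with OSM. Bst2, or tetherin, which holds budding virus at the membrane, had 26.2 and 18.1 CPM in controls, 12.5 and 17.7 with IL6, 17.1 and 15.7 with LIF and 12.04 and 12.9 with OSM. It fell by 0.83 ± 0.19 on the log2 scale with OSM (edgeR adjusted p = 0.0115). Its OSM value was -0.54 against control 2 alone (0.0542) and -1.06 against control 1 alone (5.89e-04), and the call was also lost without either OSM library. Its LIF value was -0.14 (0.745) and -0.67 (0.0285). Ifi44 had 6.69 and 1.75 CPM in controls, 1.62 and 2.83 with IL6, 2.72 and 2.08 with LIF and 0.48 and 0.81 with OSM. Both OSM libraries were below all 6 others, and control 1 was above all others. With LIF it gave 0.46 against control 2 alone (0.597) and -1.47 against control 1 alone (0.0103). The OSM value was -2.70 ± 0.67 (edgeR adjusted p = 0.0211), -1.44 against control 2 alone (0.0391) and -3.36 against control 1 alone (1.43e-05). The Ifi44 call was lost with the replicate number as a block (0.0621), with no filter on low counts, in a fit of the 2 groups, and without either IL6 or either OSM library. Ifi35 and Xaf1 did not pass against control.

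**Figure D5:**
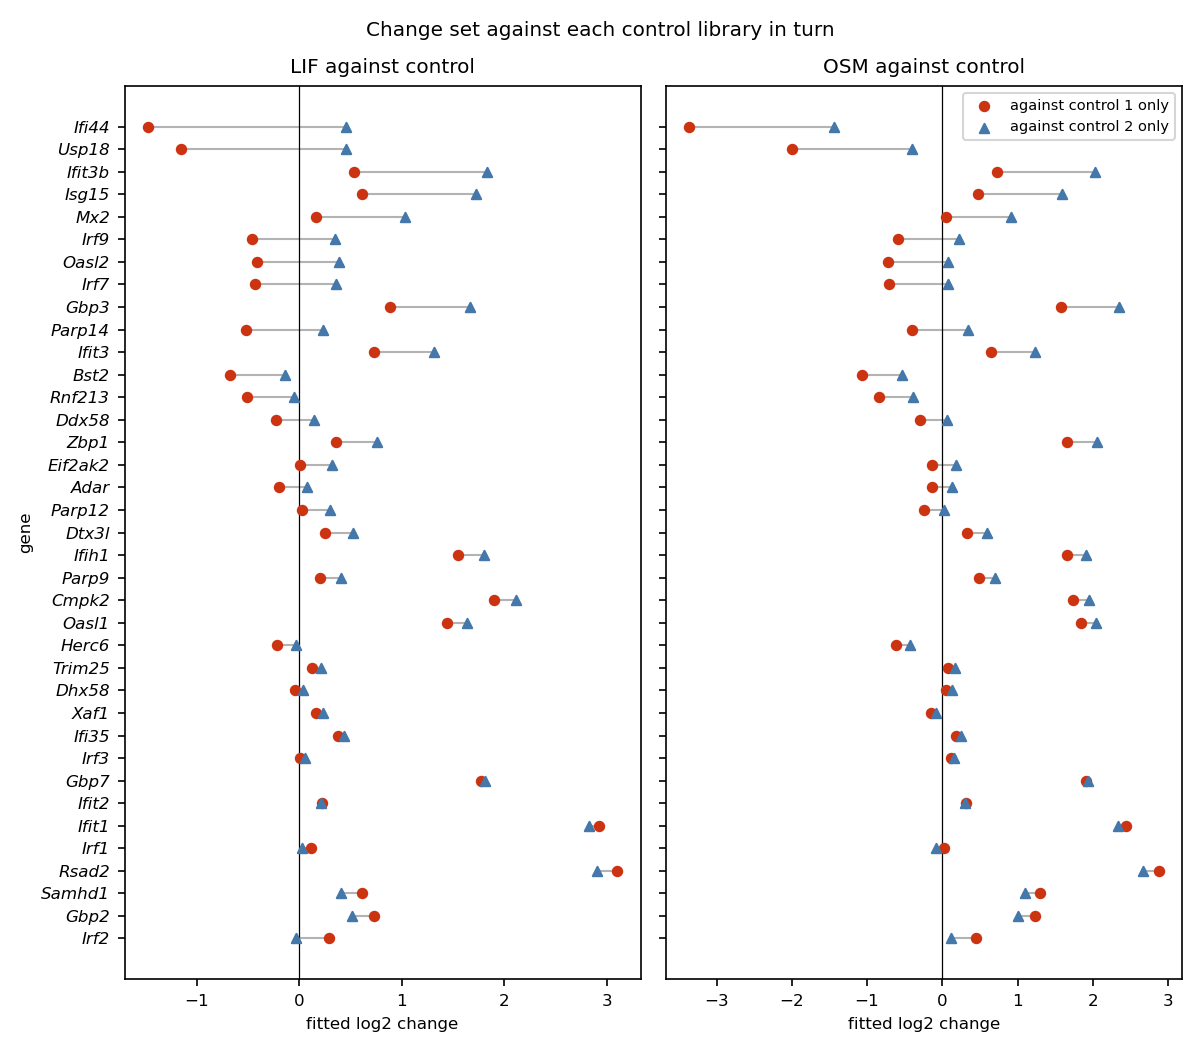
Fitted log2 change with LIF (left) and OSM (right) for each tested member, against control 1 alone (circles) and control 2 alone (triangles), ordered by the ratio of the controls. The sign differs between the control libraries for 10 members with LIF and 9 with OSM, while Rsad2, Ifit1 and Gbp7 change little between the controls in both panels.

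Not all calls held under every alternative computed. With LIF 6 of 9 calls held throughout, those of Ifit1, Rsad2, Gbp7, Ifih1, Cmpk2 and Samhd1. With OSM 10 of 19 held, which were the same 6 and Oasl1, Gbp2, Gbp3 and Zbp1. None of the 3 lower calls with OSM is among them.

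IL6 at the same dose and time gave 0 called members of 37, where 0.0% of all genes were called. At an unadjusted p under 0.05 there were 8 members and 795 genes (5.1%), and DESeq2 called 0 members and 19 genes. Of those 8, Rsad2 and Ifit1 were higher and Ddx58, Usp18, Rnf213, Irf9, Bst2 and Xaf1 lower. The log2 value was below 0 for 26 of the 37 members. The largest positive values were those of Rsad2 (log2 0.48 ± 0.13, edgeR adjusted p = 0.933) and Ifit1 (0.40 ± 0.13, 0.943), whose IL6 libraries were above both controls and below all LIF and OSM libraries. The median of members was -0.12, and 0.00 without control 1. In 15 members the sign of the IL6 value depended on which control library was used, and Irf9 alone passed, as lower, when control 2 was left out (adjusted p = 0.0423).

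Against the IL6 libraries, LIF raised 12 of 37 members and OSM 17, with 0 lower in both. The log2 values here do not rest on the control levels. The calls do rest in part on the controls, since all 4 groups share 1 estimate of the spread. Under every alternative 5 of the 12 calls held with LIF and 10 of the 17 with OSM. Over all genes 2.78% were called with LIF (1.76% higher, 1.02% lower) and 15.5% with OSM (8.02% higher, 7.52% lower). Rsad2 was higher by 2.52 ± 0.12 with LIF and 2.29 ± 0.12 with OSM (edgeR adjusted p = 2.38e-07 and 7.03e-08). Ifit1 was higher by 2.47 and 1.98, Gbp7 by 1.81 and 1.93 and Ifih1 by 1.42 and 1.52. Isg15 passed in both, by 1.37 ± 0.28 (edgeR adjusted p = 0.044) and 1.23 ± 0.28 (0.0194), though each call was lost without either IL6 or either OSM library, and the LIF call also without either LIF library. Trim25 passed in both and Xaf1, a pro-apoptotic factor, with LIF, at 0.31 and 0.26 for Trim25 with LIF and OSM and 0.50 for Xaf1, all calls lost when only the 2 groups were fitted. Bst2, Rnf213 and Ifi44 did not pass against IL6.

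LIF and OSM were compared directly, since a call in one and not the other is no difference. Of the 37 members 2 were higher with OSM (4.01% of all genes) and 1 lower (4.04%), where 8.04% of all genes were called. Samhd1 is given above. Ifit1 fell by 0.49 ± 0.10 from LIF to OSM (edgeR adjusted p = 0.00867), a call lost without LIF 1 (0.129) or OSM 1 (0.182). Zbp1 was higher by 1.29 ± 0.37 (edgeR adjusted p = 0.048), a call lost without any 1 of the 4 LIF and OSM libraries or with DESeq2, and 0.86 without LIF 2. Gbp3 (0.68, adjusted p = 0.0848) and Rsad2 (-0.23, 0.222) did not pass. Members that passed against control with OSM only, such as Isg15 (-0.14, 0.835), Parp9 and Dtx3l, were not shown to differ between the cytokines.

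Levels between genes were compared per kilobase of exon (GENCODE M21). In the mean of the controls Bst2 was highest at 24.5 CPM per kb, followed by Trim25 at 11.2, Isg15 at 9.98 and Irf3 at 9.16. Isg15 had 13.7 CPM per kb in control 1, above Trim25 there, and 6.31 in control 2, below Irf3. With LIF the order was Ifit1 at 26.1, Isg15 at 20.9, Bst2 at 18.2 and Rsad2 at 16.2 CPM per kb. With OSM it was Isg15 at 18.9, Ifit1 at 18.6, Bst2 at 13.8 and Rsad2 at 13.8 CPM per kb.

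Promoter letters and calls were set side by side as a description. Over all genes 4.2% were higher with LIF, and 10.8% were higher and 10.6% lower with OSM. Calls among all genes that hold these letters were not counted, so a link between letters and calls was not tested. Of 13 tested members with an ISRE core in the window, 9 were higher with LIF or OSM and Bst2 was lower with OSM. Of 18 tested members with a window but no such core, 5 were higher (Ifit2, Oasl1, Cmpk2, Samhd1 and Dtx3l) and 2 lower. Ddx58, Eif2ak2 and Irf2 hold the core and were not called. The GAS letters were in 9 tested members, of which Ifit2, Gbp7 and Samhd1 were higher and Bst2 lower.

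The rest of the pathway was read from lists taken from general knowledge, also chosen with earlier results of these data known. Of 20 interferon ligand genes 16, Ifnb1 among them, were at 0 in all 8 libraries, which allows up to 3 counts each in a library, and the highest ligand count was 3, for Ifne. Among 6 tested receptor genes, Ifnar2 (log2 0.30 ± 0.08, edgeR adjusted p = 0.0179) and Il10rb (0.88 ± 0.12, 1.5e-04) were higher with OSM and 0 with LIF. The Ifnar2 call was lost without control 1 (0.0793). Ifnar1 was at 42.5 and 41.0 CPM in controls and 45.2 and 47.7 with OSM. In signalling, 5 of 21 tested genes were higher and 0 lower with LIF, and 8 were higher and 2 lower with OSM. Over all genes 4.2% were higher and 3.46% lower with LIF and 10.8% and 10.6% with OSM, so the lower share with OSM, 2 of 21, was near that of all genes. Stat2, a part of ISGF3, stood at 25.5 and 27.1 CPM in controls, 50.2 and 47.2 with LIF and 37.9 and 40.5 with OSM, log2 changes of 0.89 ± 0.08 and 0.58 ± 0.08 (edgeR adjusted p = 3.23e-05 and 2.52e-04). Tmem173 (STING), the adaptor for cytosolic DNA, rose by 1.07 ± 0.11 with LIF and 1.15 ± 0.11 with OSM (edgeR adjusted p = 8.11e-05 and 6.67e-06). Socs3, the feedback inhibitor of gp130 signalling, rose by 1.47 and 1.37.

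Of 57 other interferon-induced genes tested, 10 were higher and 0 lower with LIF, and 16 were higher and 6 lower with OSM. The 6 of 57 lower are near the 10.6% of all genes lower with OSM, whereas 4.2% and 10.8% of all genes were higher with LIF and OSM. Ddx60, a helicase that assists RIG-I, rose by 2.26 ± 0.15 with LIF and 1.99 ± 0.15 with OSM (edgeR adjusted p = 2.66e-06 and 1e-06). The GTPases Tgtp2 (log2 1.70 with LIF, 1.28 with OSM), Irgm1 (0.97, 0.54) and Irgm2 (0.89, 0.40) also rose. Cxcl10, a chemokine, rose with OSM (1.71 ± 0.23, edgeR adjusted p = 1.25e-04). Lower with OSM were Oas1c, Gbp4, Ifi27l2a, Slfn9, Lgals3bp and Rbl1. The calls of Oas1c and Gbp4 were lost without either control library, and those of Ifi27l2a (1.44 and 0.50 CPM in controls), Slfn9 and Lgals3bp (41.6 and 27.0 CPM) without control 1, where the adjusted p-values were 0.286, 0.0587 and 0.134. Among the higher calls, those of Igtp with LIF and Ccl5 with OSM were also lost without either control library. Those of Ifitm3 and Znfx1 with LIF and Slfn2 with OSM were lost without control 2, where the log2 values were 0.23, 0.31 and 1.56. Of these 57 genes 45 were higher in control 1 than in control 2, 11 by at least 1.5-fold and 0 the other way.

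Macrophage markers summed to 10.3 and 9.07 CPM in controls, 16.2 and 11.2 with IL6, 16.0 and 15.6 with LIF and 17.4 and 15.6 with OSM. Mrc1 and Cd68 made up most of this, at 168 to 348 and 54 to 125 counts. Adgre1, C1qa, Lyz2 and Csf1r had at most 7 counts in a library and were not tested. Mrc1 was higher with LIF (log2 0.81 ± 0.17, edgeR adjusted p = 0.012) and OSM (0.68 ± 0.18, 0.0145). Against control 1 alone its values were 0.65 and 0.52, and both calls were lost. Cd68 was higher with OSM (1.03 ± 0.19, edgeR adjusted p = 0.00187), and Cd14 and Itgam did not pass. All cytokine libraries, those of IL6 included, had a higher sum than both controls. The part of such cells in the results was not tested.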

How the data were processed

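RNA was measured in 8 libraries, 2 in each of 4 groups taken from the sample titles. The authors deposited raw read counts per gene, 1 table per library, unpooled, from a stranded poly(A) kit per the labels' protocols. Trim Galore 0.6.5, STAR 2.7.3a, HTSeq 0.11.1, FastQC 0.11.9, MultiQC 1.12, DESeq2 1.34.0 and the GRCm39 (mm39) build are named per the submitters' processing notes. The strand setting and the annotation release are not given in the sources used here. Summary lines for reads given to no gene, 11.7% to 12.7% of recorded alignments, were left out. Symbols came from GENCODE M21 (GRCm38), matching 52093 of 53647 identifiers with 99.8% of the counts. M21 is not the annotation used for counting, so lengths and shared sequence are approximate. In M21, Ifit3 and Ifit3b share 51.2% and 45.003% of their 50-base stretches, Gbp7 shares 12.8% and Herc6 23.8% with other gene models, and Parp9 and Dtx3l overlap on opposite strands.

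Counts were analysed in edgeR 4.0.16 (R 4.3.3): filterByExpr with a minimum count of 10, TMM scaling, a robust quasi-likelihood fit with 1 mean for each of the 4 groups (4 residual degrees of freedom), and Benjamini-Hochberg adjustment over 15603 genes. DESeq2 1.42.0, DESeq2 size factors, no filter, a replicate block, fits of 2 groups and leaving out each library were alternatives. Where a control library was left out, the remaining one is assumed to vary like the other groups. Data were simulated for LIF against control over 15352 genes, with the same spread for every gene and changes only in genes with higher counts. There the test recovered 99% of 2-fold and 100% of 4-fold changes, with 3.86% of calls false. These rates do not cover members with few counts, such as Zbp1 and Usp18, or with more spread, such as Ifi44. Replicates of a group differed by more than counting error (chi-square per gene 3.04 to 12.3). Limits from counts cover counting error only. Replicate numbers were not treated as pairs, since their deviations correlated by 0.0071 to 0.181 between groups.

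The members and lists were chosen with earlier results of these data known. All 40 members could be named by role, with full statistics for those passing with LIF or OSM, and non-members for passing a cytokine comparison or being a ligand or receptor. Promoters were those of RefSeq (GRCm38.p6), none used for counting. Some genes of the lists are not reported here.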

Additional observations from a re-analysis of the deposited data

How the results depend on the processing

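Of 60 calls of members in 6 comparisons, 32 held under all alternatives and 0 reversed. The cause of the changes below was not tested. With no filter on low counts, the members called were 14 with LIF against control, 3 with IL6 against control and 6 in OSM against LIF, and all genes called were 97 with IL6 and 985 in LIF against IL6. DESeq2 called 19 genes with IL6. A fit of only the 2 groups called 2928 genes and 9 members in OSM against LIF. The replicate numbers share no stated animal or batch. With the replicate number as a block, 9 genes were called with IL6 and 826 in LIF against IL6. Members called with this block were 18 with OSM, 11 with LIF and 0 with IL6. They were 4 in OSM against LIF, 17 in OSM against IL6 and 14 in LIF against IL6. Both with no filter and with this block, more of all genes were called than in the main fit in each of the 6 comparisons. Member counts under these settings therefore stand beside larger numbers of called genes, and a change particular to members was not tested.

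Leaving out 1 library at a time gave these ranges. For OSM against control there were 1622 to 4067 genes and 11 to 17 members called, with a member median of 0.12 to 0.25. For LIF against control there were 316 to 1688 genes and 6 to 11 members, median 0.16 to 0.41. For IL6 against control there were 0 to 221 genes and 0 to 1 members, median -0.27 to 0.002, the last without control 1. For OSM against LIF there were 437 to 1764 genes and 1 to 6 members, median -0.15 to -0.03. For OSM against IL6 there were 1105 to 2713 genes and 10 to 19 members, median 0.26 to 0.50. For LIF against IL6 there were 82 to 739 genes and 6 to 14 members, median 0.37 to 0.49.

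Some values that did not pass with all libraries changed sign. Without control 1 and without control 2 respectively, the LIF value was 0.46 and -1.47 for Ifi44, 0.35 and -0.46 for Irf9, 0.36 and -0.43 for Irf7 and 0.39 and -0.41 for Oasl2. The OSM value was 0.22 and -0.58 for Irf9, 0.076 and -0.71 for Irf7 and 0.078 and -0.72 for Oasl2. The IL6 value was 0.35 and -1.59 for Ifi44 and 0.35 and -0.76 for Isg15. Without LIF 2, the LIF values of Irf7 and Oasl2 were 0.11 and 0.05. For Zbp1 the LIF value was -0.083 without LIF 1 and 0.98 without LIF 2. Of 120 group levels compared with unscaled CPM, 3 moved by more than 1 SD, by at most 2.44%. For Oas1a, Oas2 and Mx1 the depth allowed no test.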
